A study of Mus musculus with 2 samples.

Results

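Late condensing spermatids are haploid male germ cells near the end of their shaping into sperm. Here they are the 400 cell barcodes of each library chosen by the highest share of UMIs (counts of single mRNA molecules) from 5 late marker genes, Nudt16l2, Ttc24, Bpifa3, Tmem239 and 1700042G07Rik. A barcode had to hold at least 1500 UMIs, at most 20% of them mitochondrial, and over 4% of them from Prm1, Tnp1 and Tnp2. Its 5 late markers together also had to exceed 6 genes of early elongating spermatids, Fam71b, Cst13, Tuba8, Prss52, Hemgn and Actrt3. That made 800 members of the 38095 barcodes of the series, 400 of 22885 in the Prm2-/- library and 400 of 15210 in the Prm2 +/- library. The members were 7.39% and 13.2% of the 5412 Prm2-/- and 3034 Prm2 +/- barcodes over the 4% gate.

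The series compared dissociated whole testes of Prm2 knockout (Prm2-/-) and Prm2 heterozygous (Prm2 +/-) mice, with 1 library of each and no treatment. Both genotypes carry at least 1 altered Prm2 allele, and no wild type library was used here. Age, strain, the number of animals and the altered stretch of Prm2 are not given in the sources used here. With 1 library per genotype no difference has a replicate check, so no test was made, and every interval below is a 95% interval for counting error only.

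During spermiogenesis histones are exchanged for transition proteins and then for protamines, small arginine-rich proteins that pack sperm DNA. The mRNAs of these proteins are made in round and early elongating spermatids, stored, and translated later, after transcription has stopped. In mice protamine 1 and protamine 2 are both needed for normal sperm, and the late spermatid then sheds most of its cytoplasm.

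The share of UMIs from the 5 late markers chose the members, so it is a description. It went from 0.641% to 1.43% in Prm2-/- members and from 0.752% to 1.33% in Prm2 +/- members, with medians of 0.733% and 0.866%. The first barcodes outside the limit had 0.640% and 0.752%, so the members are the top of a continuous range and not a separate cluster. Among the late markers, 1700042G07Rik had at least 1 UMI in 400 Prm2-/- and 400 Prm2 +/- members, and Bpifa3 in 88.5% and 98.0%. Early genes, which the rule also used, had a median of 1 UMI per member in both libraries and none at all in 199 Prm2-/- and 184 Prm2 +/- members. Their low level is likewise a description. Round spermatid markers summed to 411 CPM (UMIs of a gene in 1000000 UMIs of the pooled members) in Prm2-/- members and 268 CPM in Prm2 +/- members, against 1634 and 2138 CPM in early elongating barcodes of the same libraries. Pachytene markers summed to 818 and 534 CPM in members, against 1003 and 851 CPM in early elongating barcodes. Sertoli markers summed to 441 CPM in Prm2-/- and 75.3 CPM in Prm2 +/- members, against 234 and 98.7 CPM in early elongating barcodes.

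The libraries held 123588822 UMIs (Prm2-/-) and 71364845 UMIs (Prm2 +/-). Members had a median of 3385 UMIs in the Prm2-/- library (1705 to 15040) and 4559 UMIs in the Prm2 +/- library (1572 to 22203). The libraries shared 88 barcode sequences, of which 2 were Prm2-/- members and 1 a Prm2 +/- member, and no sequence was a member in both. Doublets were kept. The caller Scrublet marked 12.6% of Prm2-/- and 1.01% of Prm2 +/- barcodes, and choosing again without them kept 378 and 395 of the members.

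The 100 bases before the start sites of 4 chromatin genes are shown because the results turn on their mRNAs, 5′ to 3′ on the gene's strand, from RefSeq (GRCm38.p6). Capitals mark TATA, a core element of the promoter that reads the same on both strands, searched from 45 to 20 bases before the start. Overlapping matches are joined.
Prm1, chr16:10796824-10796923, minus strand: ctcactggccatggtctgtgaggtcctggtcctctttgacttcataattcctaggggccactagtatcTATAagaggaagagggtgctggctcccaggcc
Prm2, chr16:10792106-10792205, minus strand: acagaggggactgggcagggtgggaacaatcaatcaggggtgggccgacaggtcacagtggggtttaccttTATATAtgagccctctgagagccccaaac
Tnp2, chr16:10788656-10788755, minus strand: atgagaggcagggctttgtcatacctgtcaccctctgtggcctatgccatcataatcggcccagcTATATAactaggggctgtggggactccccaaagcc
Tnp1, chr1:73015900-73015999, minus strand: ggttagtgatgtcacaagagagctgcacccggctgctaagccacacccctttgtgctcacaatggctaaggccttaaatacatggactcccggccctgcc
The letters TATA stood in that window for Prm1, Prm2 and Tnp2 and not for Tnp1, Prm3 or any of the 5 late markers, against 6.31% of all 32851 RefSeq mouse promoters. Prm1, Prm2, Prm3 and Tnp2 lie next to each other on chromosome 16, all on the minus strand.

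Prm2 mRNA was close to absent from Prm2-/- members and was the second most counted mRNA of Prm2 +/- members. It had 14 UMIs in the 400 Prm2-/- members, 9.27 CPM, against 112466 UMIs in the 400 Prm2 +/- members, 52958 CPM. The log2 ratio was -12.48 (interval -13.35 to -11.73). No Prm2-/- member held more than 1 Prm2 UMI. With each barcode thinned to 1500 UMIs, 1.00% of Prm2-/- members (4 of 400, exact Clopper-Pearson interval 0.273 to 2.54%) and 100% of Prm2 +/- members held a Prm2 UMI. Unthinned, the shares were 3.50% and 100%. Barcodes of other cells give a background to such shares. Of 200 barcodes rich in Sertoli markers, thinned alike, 0% in the Prm2-/- library and 95.0% in the Prm2 +/- library held one. The source of those UMIs was not tested. By level the Prm2 +/- members stood far above that background, at 52958 CPM against 3650 CPM in Sertoli-rich and 2243 CPM in pachytene-rich barcodes. The altered stretch of the gene is not known here and the kit counts 3′ ends, so the values speak only for mRNAs whose 3′ end could be captured and counted.

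The other protamine and transition protein mRNAs differed by less than 2-fold between genotypes in the members as chosen. Prm1, the protamine present in all mammals, made up 88536 CPM of Prm2-/- members and 103509 CPM of Prm2 +/- members, a log2 ratio of -0.23 (-0.24 to -0.22). Prm3, an acidic protein named after its place in the protamine cluster, had 6449 and 6488 CPM (log2 -0.01). Tnp1 and Tnp2, the transition proteins, had 15459 against 13272 CPM (log2 0.22) and 20405 against 17892 CPM (log2 0.19). Counting intervals are narrow at these totals and say nothing of how far 2 libraries of 1 genotype would differ. With TMM factors of edgeR, another scaling, the median over all genes compared goes from 0.22 to -0.31. All knockout over heterozygous values are then 0.49 lower, and Tnp1 and Tnp2 lie below 0. Their values also depend on how many barcodes are taken: with the top 10% of the gate in each library, an alternative added after the data were seen, Tnp1 was 1.07 and Tnp2 0.79, and with 800 members -0.08 and -0.05.

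Along the ranking by late marker share the 2 kinds of chromatin mRNA parted. Barcodes were set out from early elongating ones (early genes above late markers, highest early share; 400 Prm2-/-, 343 Prm2 +/-) through bands of 400 down the late ranking to the members. Tnp1 and Tnp2 together made up 60436, 77172, 80396, 71685, 65278 and 35864 CPM in the Prm2-/- library. In the Prm2 +/- library they made up 48167, 90478, 96909, 91494, 74218 and 31164 CPM. Both libraries thus had the highest transition protein level in the band after the first and the lowest in the members. Prm2 in the Prm2 +/- library ran 16934, 31809, 35055, 38433, 44009 and 52958 CPM, highest in the members. Prm1 was highest in the band next to the members, at 90114 CPM in the Prm2-/- and 108536 CPM in the Prm2 +/- library. Because Prm1, Tnp1 and Tnp2 gated the barcodes and the late markers ranked them, these courses are descriptions.

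**Figure D1:**
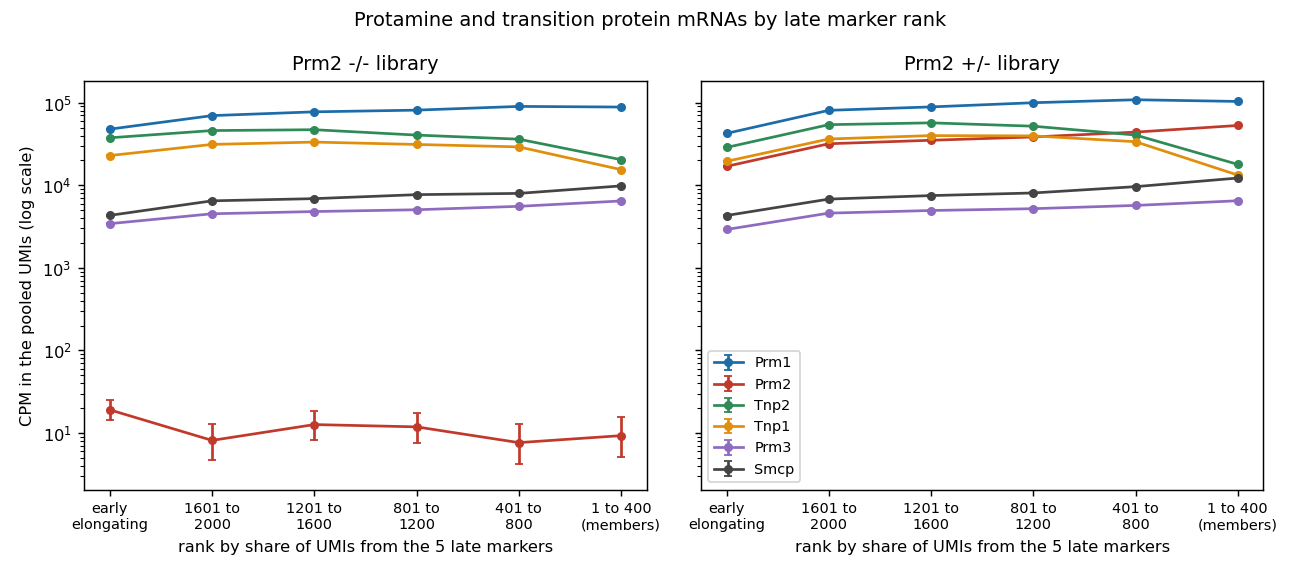
CPM of pooled UMIs (log axis) of 6 genes in early elongating barcodes and in bands of 400 barcodes by late marker share, Prm2-/- library on the left and Prm2 +/- library on the right, with 95% Poisson intervals. Tnp1 and Tnp2 bend down at the members (20405 CPM of Tnp2 in Prm2-/- and 17892 CPM in Prm2 +/-), Prm3 and Smcp do not, and Prm2 lies between 7.63 and 19.0 CPM throughout the Prm2-/- library.

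Members differed widely in their transition protein mRNA. The Tnp1 plus Tnp2 share of a single member ran from 0.164 to 13.7% of UMIs in the Prm2-/- library (median 1.80%) and from 0.349 to 12.4% in the Prm2 +/- library (median 1.32%). The quartiles lay at 0.624 and 6.12% in Prm2-/- members and at 0.794 and 3.20% in Prm2 +/- members. Prm1 shares ran from 2.51 to 21.8% (median 8.81%) and from 2.63 to 19.2% (median 10.8%). Prm2 was the most even of these mRNAs in the Prm2 +/- members, with quartiles at 4.73 and 5.83% around a median of 5.23%. Prm3 was nearly as even in both libraries, with quartiles at 0.512 and 0.750% in Prm2-/- members and at 0.552 and 0.742% in Prm2 +/- members.

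**Figure D2:**
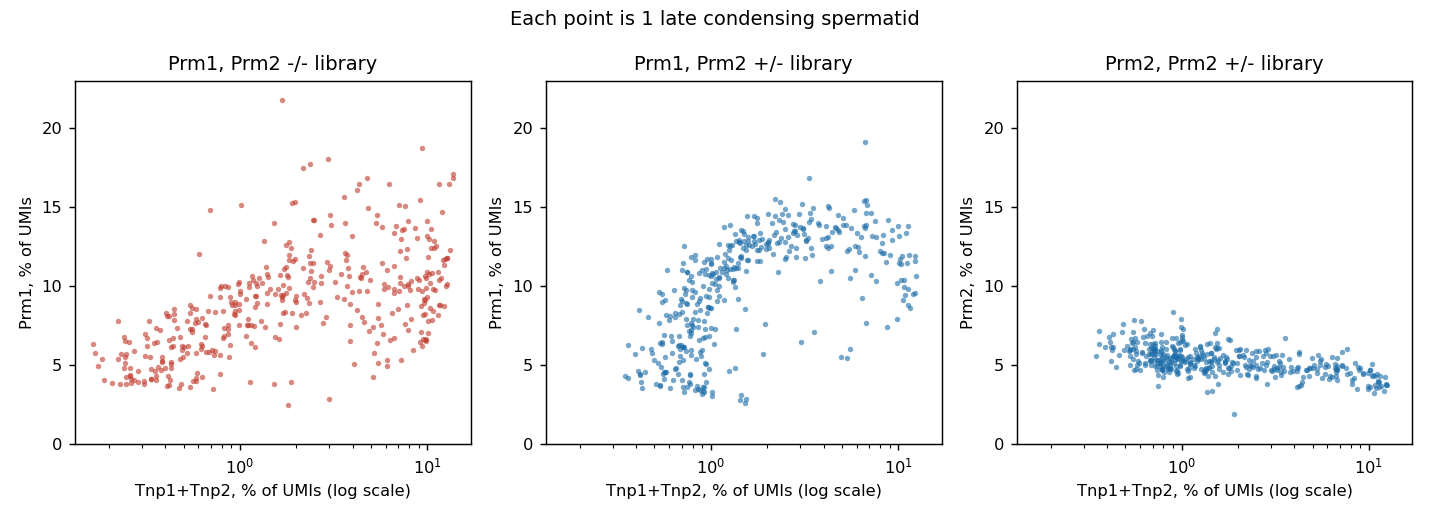
Each point is 1 member. The x axis is its Tnp1 plus Tnp2 share of UMIs (log axis) and the y axis its Prm1 share in the Prm2-/- library (left), its Prm1 share in the Prm2 +/- library (centre) and its Prm2 share in the Prm2 +/- library (right), all in percent. Prm1 shares are lowest where Tnp shares are lowest in both libraries (medians 8.81% and 10.8%), while Prm2 shares lie between 1.91 and 8.40% around a median of 5.23% and lean the other way.

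Prm1 and Prm2 mRNA went separate ways inside the Prm2 +/- members. These were sorted by Tnp1 plus Tnp2 share into 5 bins of 80, a split chosen after the data were seen. From the lowest to the highest bin Prm1 had 64854, 78816, 108622, 129773 and 121119 CPM, and Prm2 60413, 56033, 54112, 51821 and 45696 CPM. The ratio of Prm1 to Prm2 UMIs was therefore 1.07 (1.05 to 1.09) in the lowest bin, 1.41, 2.01 and 2.50 in the next, and 2.65 (2.61 to 2.69) in the highest. Early elongating barcodes and the 4 bands below the members had ratios of 2.47 to 2.60, and the members as a whole 1.95 (1.94 to 1.97). UMIs count captured 3′ ends whatever the length of the mRNA, and capture may differ between both genes, so the ratio is to be read between bins and not as the ratio of molecules.

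In Prm2-/- members Prm1 was also lowest in the lowest bin. Their 5 bins had 55144, 78405, 103850, 99708 and 104458 CPM of Prm1 from the lowest to the highest Tnp share. Across the 400 members of each library the rank correlation of the Prm1 share with the Tnp share was 0.61 in Prm2-/- and 0.68 in Prm2 +/- members. For Prm2 it was -0.56 in Prm2 +/- members, and for Prm3 -0.06 in Prm2-/- and -0.26 in Prm2 +/- members. These are descriptions: the shares of a barcode have 1 denominator and members of a library were captured together. The gate requires over 4% from Prm1, Tnp1 and Tnp2 together, so a low-Tnp member is seen only if its Prm1 alone nearly passes, and cells low in both are missing. Depth was close between bins in the Prm2-/- library (medians of 3140.5 to 3698.5 UMIs). The Prm2 +/- bins had medians of 4065 to 6036.5 UMIs, highest in the highest bin, and its part in the pattern was not tested.

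**Figure D3:**
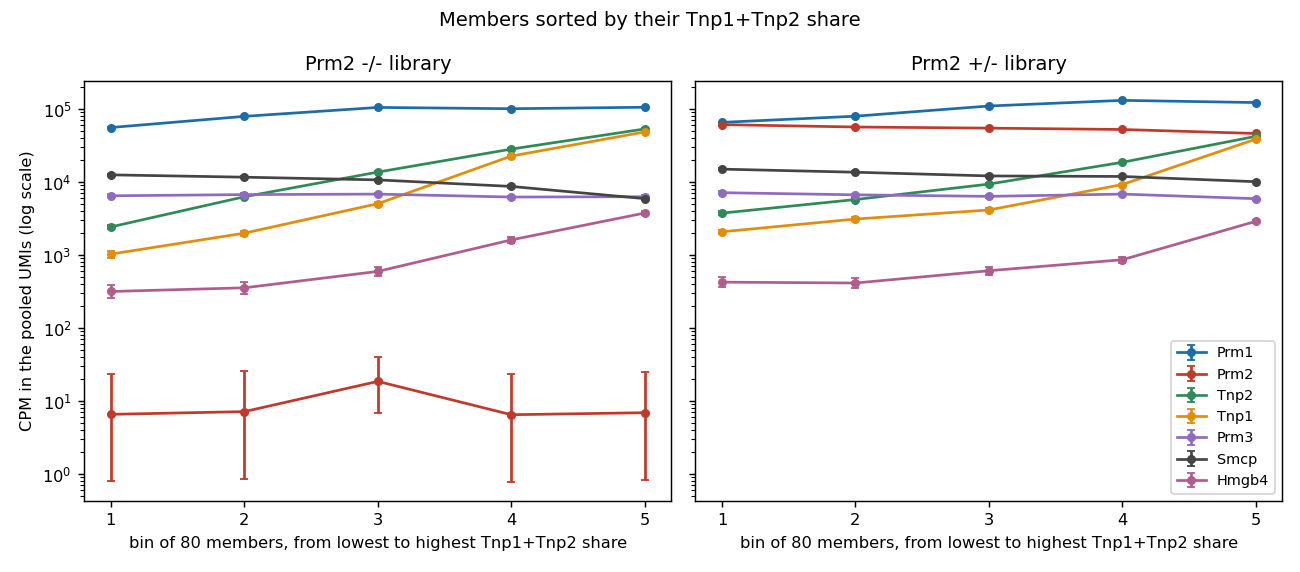
CPM of pooled UMIs (log axis) of 7 genes in 5 bins of 80 members from the lowest to the highest Tnp1 plus Tnp2 share, Prm2-/- library on the left and Prm2 +/- library on the right, with 95% Poisson intervals. Prm1 and Prm2 nearly meet in the lowest bin of the Prm2 +/- library (64854 and 60413 CPM), and Hmgb4 follows the transition proteins in both libraries.

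Other mRNAs followed the transition proteins. The 133 members lowest and the 133 highest in Tnp share were compared within each library, among genes with at least 50 CPM on 1 side and 100 UMIs over both. A difference of 2-fold (log2 of 1) is used throughout as a rule of size. In Prm2-/- members 109 of 1260 genes were at least 2-fold lower on the low-Tnp side (8.65%) and 17 higher (1.35%), and in Prm2 +/- members 97 of 1441 were lower (6.73%) and 13 higher (0.902%). In both libraries 63 of 1188 genes were at least 2-fold lower in the low-Tnp members (5.3%) and 2 were at least 2-fold higher (0.168%), Spag16, an axoneme protein (1.20 and 1.15), and mt-Nd2 (1.13 and 1.71). Of these 1188 genes 104 were lower in Prm2-/- and 84 in Prm2 +/- members. Hmgb4, a testis HMG-box protein, had 342 CPM in low-Tnp and 2956 CPM in high-Tnp Prm2-/- members (log2 -3.11), and 419 against 2121 CPM in Prm2 +/- members (log2 -2.34). Tex37, a testis-expressed gene, had log2 ratios of -3.48 and -2.53. Actrt2, an actin-related protein of the sperm head, had -1.99 and -1.74, Iqcf1, a sperm IQ-motif protein, -2.66 and -1.92, and Tfam, which packs mitochondrial DNA, -1.87 and -1.73. Haspin, a kinase first found in haploid germ cells, had -1.74 and -1.90. The ribosomal protein Rps29 had -1.94 and -1.88. Of the cytosolic ribosomal protein list 7 of 38 genes in Prm2-/- and 7 of 40 in Prm2 +/- members were at least 2-fold lower. Over all genes the shares were 8.65% and 6.73%. The list medians were -0.13 and -0.04, against 0.26 and 0.20 over all genes.

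Smcp leaned the other way, by less, and the outer dense fibre and fibrous sheath list lay a little above all genes. Smcp, a protein of the mitochondrial capsule, had 12272 CPM in low-Tnp and 6955 CPM in high-Tnp Prm2-/- members, and 14487 against 10667 CPM in Prm2 +/- members. Of the outer dense fibre and fibrous sheath list, 11 of 15 measured genes in Prm2-/- and 12 of 14 in Prm2 +/- members were above 0 (medians 0.47 and 0.39), none by 2-fold, while Ropn1 was lower (-1.78 and -1.17). Over all genes the medians were 0.26 and 0.20, with 808 of 1260 and 921 of 1441 above 0. The axoneme list did not share this leaning, with medians of 0.03 and 0.06, and Spata19, a protein of the sperm mitochondria, had -1.61 and -0.96. Mitochondrially encoded transcripts were above 0 in 9 of 9 and 8 of 8 measured genes (medians 0.72 and 1.33). At least 2-fold higher were 1 of 9 in Prm2-/- and 8 of 8 in Prm2 +/- members, against 1.35% and 0.902% of all genes. TMM factors lower all these ratios by 0.28 in Prm2-/- and 0.24 in Prm2 +/- members.

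Against early elongating spermatids of the same library, members had more genes at least 2-fold lower than higher. In the Prm2-/- library 997 of 2902 genes were at least 2-fold lower in the members (34.4%) and 203 at least 2-fold higher (7%). In the Prm2 +/- library 1520 of 3013 were lower (50.4%) and 282 higher (9.36%). Of 2686 genes measured in both, 928 were lower in both (34.5%) and 137 higher in both (5.1%), leaving out the genes used by the rule. Of these 2686 genes, 946 were lower in the Prm2-/- and 1281 in the Prm2 +/- library. Early elongating barcodes were deeper, with medians of 6144 and 10362 UMIs against 3385 and 4559 UMIs in members. The Prm2 +/- ones were all 343 that had early genes above late markers, with early shares from 0.0439%, whereas the lowest in the Prm2-/- library was 0.495%. With TMM factors the Prm2 +/- values are 0.73 higher, and the split there is 883 lower and 856 higher genes.

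The lowest genes by ratio were close to gone from the members of both libraries. Faiml, an apoptosis inhibitor-like gene, had 9.27 CPM in Prm2-/- members against 277 CPM in early elongating barcodes (log2 -4.90), and 7.06 against 204 CPM in the Prm2 +/- library (-4.85). Pex5l, which binds peroxisomal targeting signals, had 28.5 against 522 CPM and 22.1 against 496 CPM (-4.19 and -4.49). Iqcf6 had log2 ratios of -4.45 and -4.55, Acot12, an acyl-CoA thioesterase, -4.68 and -4.54, and Cd59b, a complement inhibitor, -4.22 and -4.96. Ccin, which encodes the head cytoskeleton protein calicin, had -4.00 and -4.66. Cdyl, a chromodomain protein that acts on histone crotonylation in spermatids, had 55.7 against 830 CPM and 46.6 against 713 CPM (-3.90 and -3.93).

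The genes that were higher in members had smaller ratios. Dbil5, an acyl-CoA-binding protein of late spermatids, was among the most counted, with 10657 against 4341 CPM in the Prm2-/- library and 11918 against 4267 CPM in the Prm2 +/- library (log2 1.30 and 1.48). Ubl4b, a ubiquitin-like protein of elongated spermatids, had log2 ratios of 1.36 and 1.50, and Iqcf4 had 1.38 and 1.62. Klk1b3, a kallikrein, had the highest ratio by the rule, 1.56 and 1.85. Eif4h, an initiation factor, had 1.34 and 1.69, Bzw1, a regulator of start codon choice, 1.29 and 1.71, and the ribosomal protein Rpl41 1.36 and 1.40. The list of mRNA storage and translation control had medians of -0.12 and -1.16, against -0.39 and -1.02 over all genes. Of it 0 of 18 genes were at least 2-fold higher in the Prm2-/- library, where 7% of all genes were. In the Prm2 +/- library 2 of 17 were, against 9.36% of all genes, so the list lay near all genes. Apoe and C1qb, which macrophages express strongly, were also higher (Apoe 1.47 and 2.24; C1qb 1.50 in the Prm2-/- library). Summed macrophage markers had 66.9 CPM in Prm2-/- and 49.9 CPM in Prm2 +/- members, against 20.1 and 16.3 CPM in early elongating barcodes, and Csf1r, Adgre1 and C1qa were at 0 in Prm2 +/- members. Their part in these values was not tested.

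**Figure D4:**
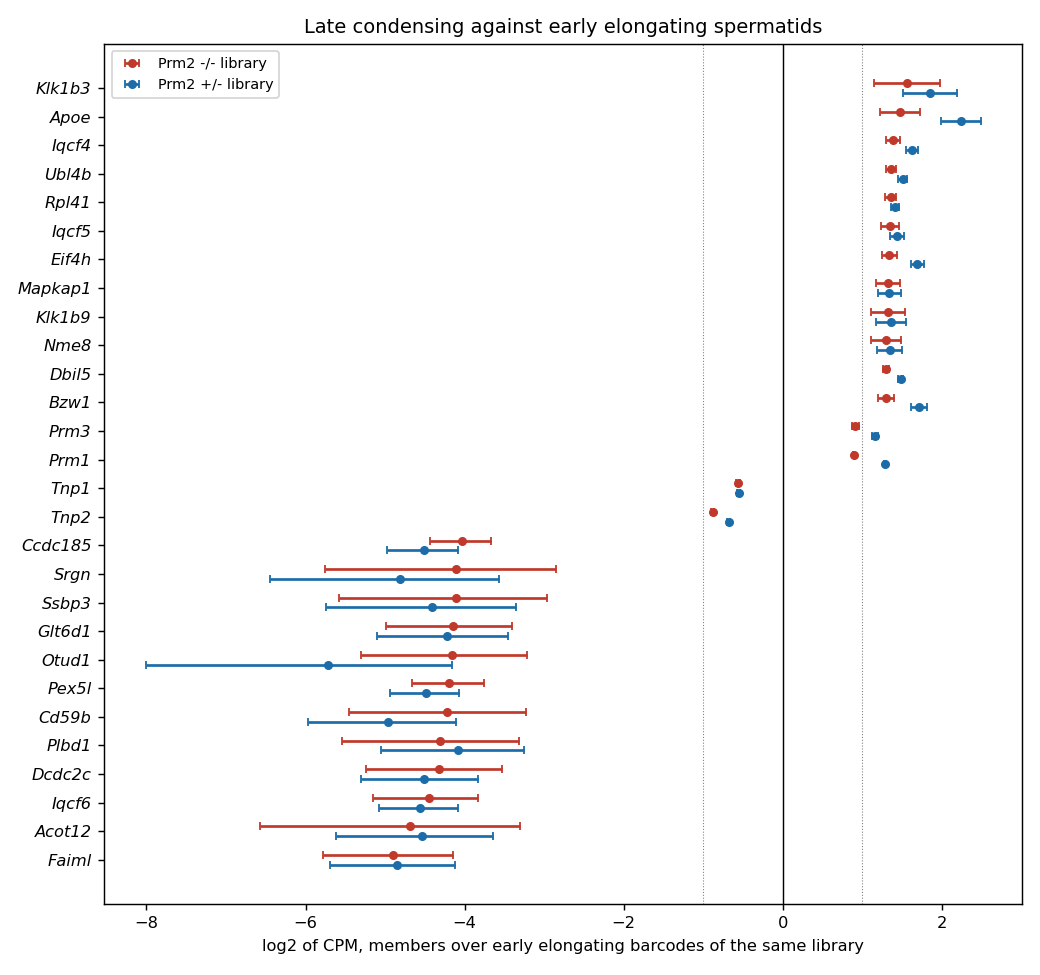
Log2 ratio of CPM in members over early elongating barcodes of the same library, for the 12 highest and 12 lowest genes by the smaller ratio of both libraries and for 4 chromatin genes, with 95% intervals for counting error, Prm2-/- above Prm2 +/- in each row. The lowest genes lie at -4.04 or below in Prm2-/-, while the highest reach 1.56 in Prm2-/- and 2.24 in Prm2 +/-, and Tnp1 and Tnp2 lie between -0.88 and -0.55. TMM factors would move every Prm2 +/- point 0.73 to the right, which puts Tnp1 and Tnp2 of that library above 0.

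By function, genes of the acrosome and of the sperm calcium channel were mostly lower, and those of the sperm tail were mixed. Of 22 measured acrosome genes, leaving out Cst13, which the rule used, 12 were at least 2-fold lower in Prm2-/- members and 17 in Prm2 +/- members (medians -1.27 and -2.33). Over all genes the shares were 34.4% and 50.4%, and the medians -0.39 and -1.02. Crisp2, a secretory protein kept in the acrosome and tail, went the other way, at 0.85 and 1.04. Of the CatSper calcium channel list, 5 of 7 measured genes in the Prm2-/- and 7 of 9 in the Prm2 +/- library were at least 2-fold lower (medians -1.96 and -2.60). The axoneme list was near or above the level of all genes, with 4 of 20 and 12 of 23 lower (medians -0.12 and -1.08) and Tekt5 at -2.80 and -3.83. The sheath and fibre genes split. Odf2, Akap4, Oaz3 and Gstm5 were 1.10 to 1.29 higher in Prm2-/- and 1.26 to 1.35 higher in Prm2 +/- members on the log2 scale, while Odf3, Akap3 and Ropn1l were lower (-3.59, -2.94 and -2.65 in Prm2-/-; -3.88, -3.66 and -3.04 in Prm2 +/-).

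The list of ubiquitin and cytoplasm removal genes also split. Rnf151 was lower (236 against 2469 CPM in Prm2-/-, 253 against 2722 CPM in Prm2 +/-), as was Fbxo24 (log2 -3.13 and -3.32), and Ube2b, whose loss in mice causes male infertility, had -2.02 and -2.44. Spem1, needed for cytoplasm removal in mice, was higher (651 against 272 CPM and 743 against 272 CPM), and so was Tppp2 (1.15 and 1.62). Among testis histone variants, Hils1, a linker histone of spermatids, had 419 against 2503 CPM and 417 against 3008 CPM (-2.58 and -2.85). H2al2a, a histone variant of condensing spermatids, had 2300 against 1214 CPM and 2774 against 1265 CPM (0.92 and 1.13). Tssk6, a kinase needed for histone removal, had 2509 against 1108 CPM and 2968 against 1034 CPM (1.18 and 1.52), whereas its relative Tssk1 had -2.85 and -3.22. Hk1, the sperm hexokinase, and Gapdhs, the sperm glyceraldehyde-phosphate dehydrogenase, were higher (Hk1 1.13 and 1.24), while Ldhc, the testis lactate dehydrogenase, was lower (-1.49 and -1.80).

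Between genotypes, members also differed in mRNAs other than Prm2. Of 2191 genes, 176 were at least 2-fold higher in Prm2-/- members (8.03%) and 26 at least 2-fold lower (1.19%), and the median log2 ratio was 0.22. This split depends on scaling: with TMM factors 37 were higher and 94 lower, and with median-of-ratios factors 36 and 97. With each barcode thinned to 1500 UMIs, 55 were higher and 12 lower. Among early elongating barcodes 44 of 3033 genes were higher (1.45%) and 176 lower (5.8%). Those sets were unlike: early genes summed to 5720 CPM in Prm2-/- and 3734 CPM in Prm2 +/- ones, round spermatid markers to 1634 and 2138 CPM. Ratios between genotypes in early elongating barcodes, here and below, thus do not compare like stages. The members were unlike too: late markers summed to 7606 CPM in Prm2-/- and 8888 CPM in Prm2 +/- members. Round spermatid markers summed to 411 and 268 CPM there. How far this enters the ratios between genotypes in members was not tested. Among the other barcodes with late markers above early genes 108 of 2660 were higher (4.06%) and 23 lower (0.865%). The high and the low ends are therefore described gene by gene below. The 12 highest were at least 2-fold higher in all 26 other settings, TMM included, with no minimum of UMIs applied to them there.

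Yjefn3 and Fmn1 stood highest and not in members alone. Yjefn3, a gene of the YjeF family with a role in lipid handling in zebrafish, had 118 UMIs in Prm2-/- and 3 in Prm2 +/- members, 78.2 against 1.41 CPM (log2 5.79, interval 4.21 to 8.09). It was found in 92 Prm2-/- and 3 Prm2 +/- members, and its log2 ratio was 5.74 in early elongating barcodes. Fmn1, formin 1, an actin nucleator, had 170 against 10.4 CPM (4.04, 3.41 to 4.74), in 161 against 21 members, and 3.55 in early elongating barcodes. Within Prm2-/- members Fmn1 ran with the transition proteins, from 78.6 CPM in the lowest to 379 CPM in the highest Tnp bin. In Sertoli-rich barcodes the ratios were 0.68 for Yjefn3 and 1.36 for Fmn1, at levels of 7.02 against 4.39 CPM and 36.5 against 14.3 CPM.

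Col22a1, a collagen gene, was higher in Prm2-/- members and close to level in early elongating barcodes. It had 533 CPM in Prm2-/- and 99.8 CPM in Prm2 +/- members (log2 2.42, 2.20 to 2.64), in 325 against 156 members. Early elongating barcodes had 376 and 382 CPM (log2 -0.02) and the other late-marker barcodes a log2 ratio of 0.65. Against early elongating barcodes its level in members was higher in the Prm2-/- library (log2 0.50) and lower in the Prm2 +/- library (-1.94). Sertoli-rich barcodes, unlike mixtures of cells in the 2 libraries, had 121 and 68.0 CPM. Between Tnp bins its level ranged less, with 455 to 589 CPM in Prm2-/- and 80.1 to 131 CPM in Prm2 +/- members. The early elongating sets of the 2 libraries were unlike, with early genes at 5720 and 3734 CPM. The difference between stages was not tested.

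Piwil1, Ppp4c and Ssh2 were also higher in Prm2-/- members. Piwil1, a piRNA-binding protein of meiotic and round cells, had 59.6 against 12.2 CPM (log2 2.28) and 2.44 in early elongating barcodes, with 376 against 468 CPM in pachytene-rich barcodes. Ppp4c, a phosphatase subunit, had 62.9 against 12.7 CPM (2.31), and Ssh2, a cofilin phosphatase, 57.6 against 12.7 CPM (2.18). The list of pachytene markers, Piwil1 included, summed to 818 CPM in Prm2-/- and 534 CPM in Prm2 +/- members. Of its 6 measured genes 4 were at least 2-fold higher, against 8.03% of all genes. Its median of 1.12 is 0.58 with TMM factors. The part of RNA from other cells in these values was not tested.

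Several of the highest genes are Sertoli genes by background knowledge. Ctsl, a lysosomal protease, had 66.9 CPM in Prm2-/- and 7.53 CPM in Prm2 +/- members (log2 3.15), and Aard 96.7 against 11.3 CPM (3.10). The cystatins Cst9 and Cst12 had ratios of 2.57 and 2.21, and the defensin Defb19 had 207 against 45.7 CPM (2.18). Tmsb4x, a thymosin of many somatic cells, had 2.58. The 9 Sertoli markers summed to 441 CPM in Prm2-/- and 75.3 CPM in Prm2 +/- members, and 251 against 83 members held a UMI of them. All 9 were counted in Prm2-/- members, while Sox9 and Wt1 were at 0 in Prm2 +/- members. In Sertoli-rich barcodes the log2 ratios were 1.84 for Ctsl, 1.64 for Aard and 0.06 for Defb19, at 4858 against 4666 CPM of Defb19. There Sertoli markers summed to 15536 and 9055 CPM and Leydig markers to 991 and 23359 CPM, so the sets were unlike. In each library 1 member had over 0.5% of UMIs from Sertoli markers, and leaving out barcodes so rich in Sertoli or red blood cell markers gave 180 higher and 25 lower genes. The part of Sertoli RNA in these values was not tested.

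Several genes lower in Prm2-/- members were also lower in other barcodes of that library. Cmss1, a ribosomal small subunit homologue, had 152 against 1064 CPM (log2 -2.81, -3.01 to -2.61), and -2.06 in early elongating and -2.15 in Sertoli-rich barcodes. Cdk8, a kinase of the Mediator complex, had 28.5 against 196 CPM (-2.79), and -2.74 and -2.44 in those barcodes. The Sertoli-rich sets of the libraries were unlike mixtures of cells. Lars2, the mitochondrial leucyl-tRNA synthetase, had 43.7 against 126 CPM (-1.52). Gm42418 and AY036118, which lie over ribosomal RNA repeats, moved alike (2042 against 7055 CPM and 72.2 against 284 CPM in the members). Counts of such genes may hold misassigned reads, which was not tested. H2-Ab1, an MHC class II gene, had 13.2 against 64.5 CPM (-2.28).

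Znrf1, Camk2b and Eva1c were lower in the members by more than in early elongating barcodes. Znrf1, a ubiquitin ligase, had 32.5 against 115 CPM (log2 -1.82, -2.30 to -1.38), and -0.42 in early elongating barcodes. Camk2b, a calcium-dependent kinase, had 19.2 against 53.2 CPM (-1.47), and 0.38 in early elongating barcodes. Eva1c had 16.6 against 66.9 CPM (-2.01) and -1.05. The early elongating sets were unlike between libraries, and these differences between stages were not tested. Hbb-bs, an adult beta globin, had 2.65 against 117 CPM, but 248 of its 249 UMIs in Prm2 +/- members came from 1 barcode. Beside that barcode it had 4 UMIs in Prm2-/- and 1 UMI in Prm2 +/- members, too few to compare.

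**Figure D5:**
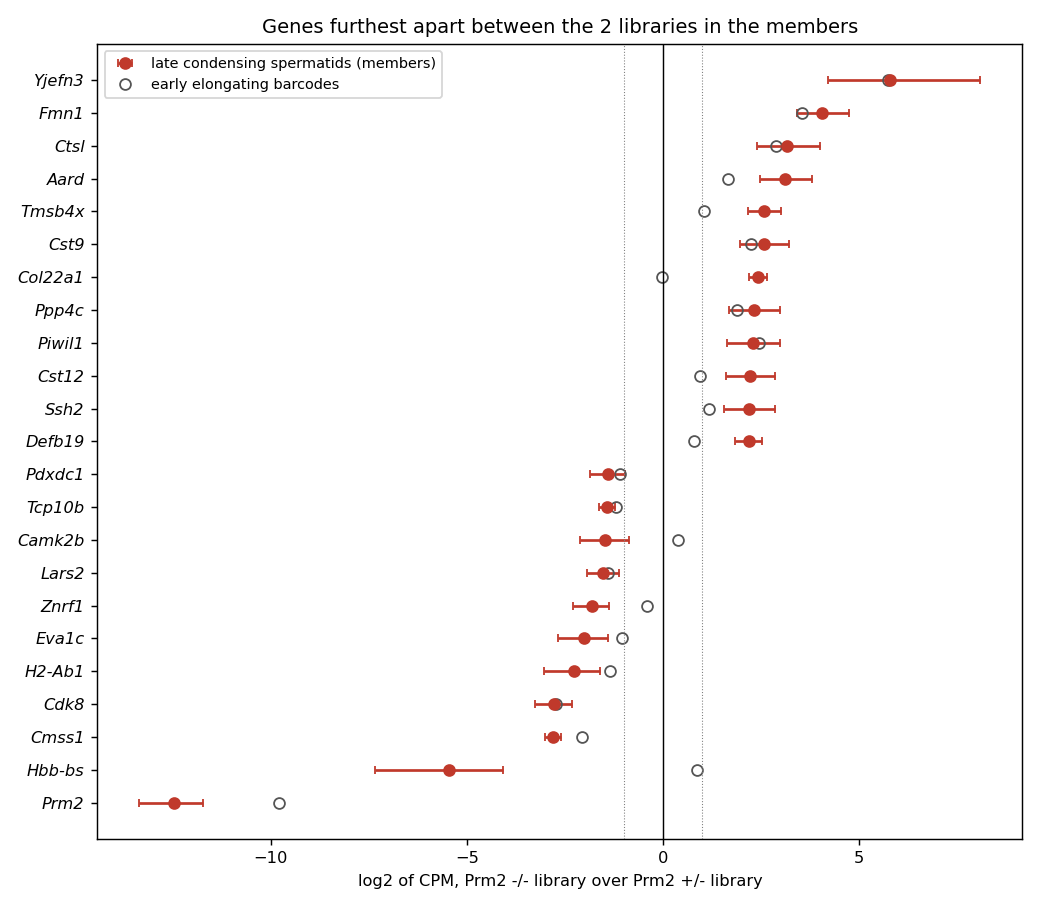
Log2 ratio of CPM in the Prm2-/- over the Prm2 +/- library for the 12 highest and most of the 12 lowest genes of the members (filled, with 95% intervals for counting error) and for the same genes in early elongating barcodes (open). The open points compare early elongating sets that were unlike between the libraries. Yjefn3 and Fmn1 lie far right in both (5.79 and 4.04 in members), Col22a1 far right in the members and near 0 in early elongating barcodes (2.42 and -0.02), and TMM factors would move every filled point 0.49 to the left.

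Mitochondrially encoded transcripts had the highest median of the functional lists, against 0.22 over all genes. All 10 measured mitochondrially encoded transcripts were at least 2-fold higher in Prm2-/- members (8.03% of all genes were), with a median of 1.27 and summed levels of 6786 against 2844 CPM. mt-Nd1 had 403 against 105 CPM (log2 1.95) and mt-Co3 1620 against 742 CPM (1.13). With TMM factors their median is 0.84. Early elongating barcodes had 4676 against 2738 CPM, and the median mitochondrial share of a barcode was 0.376% against 0.122% in members. Outside the spermatids it was 10.5 against 6.91% in Sertoli-rich barcodes and 4.31 against 3.98% in pachytene-rich barcodes. The Sertoli-rich barcodes were unlike mixtures, with Leydig markers at 991 CPM in the Prm2-/- and 23359 CPM in the Prm2 +/- library. Genes of the mitochondrial sheath were above 0 in 11 of 17, against 1543 of 2191 over all genes, and their median of 0.42 turns to -0.06 with TMM factors. Of them 4 were at least 2-fold higher, with Cyct, the testis cytochrome c, at 1.73 and Smcp at -0.32.

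The mRNA storage list had 16 of 17 measured genes above 0 in the Prm2-/- members, 4 of them at least 2-fold, and a median of 0.75 (0.27 with TMM factors). Over all genes 1543 of 2191 were above 0, 8.03% were at least 2-fold higher, and the median was 0.22. Ybx2 and Ybx3, of the storage list, bind and hold stored mRNAs such as those of the protamines. Ybx2 had 1655 CPM in Prm2-/- and 698 CPM in Prm2 +/- members (log2 1.24), and 1.33 in early elongating barcodes, and Ybx3 had 440 against 187 CPM (1.23). Histone eviction genes had 8 of 9 above 0, with Brdt, a reader of acetylated histones, at 1.09 and Set at 1.08, and a median of 0.64 that is -0.15 with TMM factors. The proteasome list had 9 of 9 above 0. Its median of 0.31 lay near the 0.22 of all genes and is -0.25 with TMM factors. Of 21 functional lists, 20 had medians above 0 as CPM. With TMM factors 20 lists had a median, 3 of them above 0, and 16 turned sign, as did the median over all genes (-0.31).

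Of 26 genes of apoptosis, p53 and DNA break response, 3 were measured, and 1 was at least 2-fold higher, Diablo, a mitochondrial apoptosis factor (86 against 43 UMIs, log2 1.49 as CPM). The median of the 3 was 0.99, and all 26 summed to 558 CPM in Prm2-/- and 319 CPM in Prm2 +/- members. The rest were too low to compare at this depth. Outer dense fibre and fibrous sheath genes had a median of 0.02 with 2 of 19 at least 2-fold higher, close to the 8.03% of all genes, Fsip1 at 1.22 and Akap3 at 1.12, and cytosolic ribosomal proteins a median of 0.05 over 44 measured genes. Acrosome, sperm-egg fusion, CatSper, kinase and testis histone lists had no gene past 2-fold in either direction, out of 15, 5, 3, 8 and 8 measured, where 8.03% of all genes were higher and 1.19% lower. H2al2a had -0.27, Hils1 0.01 and H1fnt, the testis linker histone, 0.05.

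The 12 highest genes were at least 2-fold higher in Prm2-/- members at both ends of the transition protein range. Among low-Tnp members 65 of 1280 genes were at least 2-fold higher in the Prm2-/- library (5.08%) and 13 lower (1.02%), and among high-Tnp members 92 of 1440 (6.39%) and 18 (1.25%). Of 1200 genes measured in both, 30 were higher in both (2.5%) and 10 lower in both (0.833%). Tnp1 itself was lower in low-Tnp Prm2-/- members (1321 against 2411 CPM) and higher in high-Tnp ones (38778 against 27399 CPM), a description, since Tnp1 sorted the members. Prm1 was -0.16 and -0.29, and Prm3 -0.12 and 0.04.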

How the data were processed

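Dissociated cells of whole testes were profiled with Chromium 3′ v3.1 single-cell chemistry, 15000 cells loaded per library, per the labels' protocols. The deposited values are counts, whole UMIs per gene and barcode, which per the file headers the authors made in version 7.1.0 of Cell Ranger. Seurat 4.1.0 and mm10 are named in the submitters' processing notes, and filters before deposit are not given in the sources used here. No column of other samples was present (0).

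The members and gene lists were chosen with earlier results of these data known. UMIs were summed over the barcodes of a group and divided by the group's total (CPM). A gene was compared with at least 50 CPM in 1 group and 100 UMIs over both, and 2-fold was a rule of size. Intervals (95%) cover counting error only: Poisson for a level, Clopper-Pearson for a share, and for a ratio the binomial interval of 1 group's UMIs given the sum of both. Named genes are the 12 highest and 12 lowest of a comparison without clone-based names, the markers, the protamine and transition protein genes, the 10 most abundant genes and up to 4 genes of each of 29 lists. Gm42418, AY036118 and Gapdhs lie outside that rule and were named after their values were seen. Early elongating barcodes passed the same gate with early above late genes. Sertoli-rich and pachytene-rich barcodes are the 200 with the highest marker shares below the gate. Gene positions and promoters came from GENCODE M21 and RefSeq (GRCm38.p6), and 32235 of 32285 gene IDs matched. Python 3.11.15 with numpy 2.4.6, scipy 1.17.1, pandas 2.3.3 and scanpy 1.11.5 (Scrublet), and R 4.3.3 with edgeR 4.0.16 (TMM factors only) were used. The computation was tested on simulated data. Alternatives changed the number of members, the filters, the gate, the marker genes, doublets, depth, weighting, scaling and the minimum level. Of the 12 lowest genes between genotypes, 1 is not reported here.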

Additional observations from a re-analysis of the deposited data

How the results depend on the processing

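No paired analysis was possible because each genotype has 1 library. Among alternatives to the counts of genes at least 2-fold apart, those that moved a count by over 1.5 times are given here, and the cause was not tested. Genes higher in Prm2-/- over Prm2 +/- members (176) numbered 75 with 200 members, 55 with thinned barcodes, 37 with TMM factors, 36 with median-of-ratios factors, 25 at a minimum of 200 CPM, 65 in low-Tnp and 92 in high-Tnp members. Genes lower (26) numbered 12 thinned, 94 with TMM, 97 with median-of-ratios, 8 at 200 CPM and 13 in low-Tnp members. Genes higher in members than in early elongating barcodes of the Prm2-/- library (203) numbered 101 with 800 members, 321 with the gate at 2%, 95 with the gate at 8%, 119 thinned and 125 at 200 CPM. In the Prm2 +/- library (282) they numbered 178 with 800 members, 158 with the gate at 8%, 856 with TMM and 855 with median-of-ratios. In both libraries (137) they numbered 81, 235, 57, 82, 224 and 272 with 800 members, the gate at 2%, the gate at 8%, thinning, TMM and median-of-ratios. Genes lower in the Prm2-/- library (997) numbered 495 thinned and 363 at 200 CPM. In the Prm2 +/- library (1520) they numbered 533 thinned, 883 with TMM, 885 with median-of-ratios, 2385 at 10 CPM and 478 at 200 CPM, and in both (928) 352 thinned and 315 at 200 CPM. Genes higher at low than at high Tnp share in both libraries (2) numbered 0 with the gate at 2% or 8%, without 1700042G07Rik, with any of the 3 other scalings and in the top 10% of the gate. They numbered 1 with 200 members, at most 10% mitochondrial UMIs, thinning, equal weights and 200 CPM, 4 at 3000 UMIs and without Nudt16l2 or Bpifa3, and 6 with 800 members. Genes lower there (63) numbered 26 with 200 members, 179 with 800, 98 when scaled without protamine and transition protein UMIs, 110 with TMM and 106 with median-of-ratios.

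Hbb-bs in Prm2-/- over Prm2 +/- members (log2 -5.47) turned to 0.80 with 800 members, 7.17 without 1700042G07Rik, 7.06 without early gene UMIs, 2.49 without barcodes rich in Sertoli or red blood cell markers, 0.39 in low-Tnp and 1.79 in high-Tnp members. In the members as chosen 1 barcode held 248 of its 249 Prm2 +/- UMIs. In members over early elongating barcodes of the Prm2 +/- library it was -0.30 without those rich barcodes, against 7.66. Hspa1l at low over high Tnp share in the Prm2 +/- library was 0.0255 thinned, against -1.15. The median of all genes in members over early elongating barcodes of the Prm2 +/- library was 0.0018 with TMM, against -1.02. Requiring no UMI of the other marker set was not run against early elongating barcodes, since 7 Prm2-/- and 15 Prm2 +/- barcodes remained there. Depth limits genes under 50 CPM, which is most of the DNA damage list.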
